A study of Populus ussuriensis with 8 samples.

Results

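The change in transcript levels between 0.5 h and 1 h after cutting was followed in stem cuttings of the poplar Populus ussuriensis kept on medium with 1 µM methyl jasmonate (MeJA), the volatile methyl ester of the wound hormone jasmonic acid. The 4 libraries labelled as MeJA-treated, of 8 in the series, were used for it: replicates 1 and 2 at 0.5 h and replicates 1 and 2 at 1 h. The 4 untreated libraries, 2 at each time, were cut and harvested alike on medium without MeJA and serve for comparison. All cuttings came from plants grown in vitro, and RNA was taken from the basal 0.5 cm of the stem, where adventitious roots later emerge. The age of the source plants differs between the texts of the labels, which do not say whether replicates came from separate cultures or pooled cuttings. P-values therefore rest on a spread between libraries that may be technical only.

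Cutting wounds every tissue of the stem base at the same moment. In plants, wounding raises jasmonates within minutes. The active conjugate of jasmonic acid binds a receptor that marks JAZ repressor proteins for degradation, which frees transcription factors of the MYC type. Applied MeJA is converted to jasmonic acid in the tissue and feeds into the same pathway. A library taken before cutting, or at 0 h, was not analysed here, so the comparison describes a later step of the response, not its onset, and any batch that the libraries of a time point had in common cannot be told apart from time.

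The deposited tables identify genes only by poplar identifiers (Potri, then the chromosome, G and a number that follows the order along it) and do not pair them with names or descriptions. Genes are therefore described by identifier, level, chromosome, number of transcripts and neighbours, with no function given, and the labelled tissue could not be checked against marker genes. Levels are in FPKM, a measure of fragments relative to transcript length and library size, summed over the transcripts of a gene. Changes called log2 are differences of log2(FPKM + 1), which understate the change of genes with low levels. Of 36385 genes listed, 23535 reached 1 FPKM in at least 2 of the 4 MeJA libraries and were tested. The other 12850 were not.

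The 4 libraries separated by time. Between 22774 and 23173 genes reached 1 FPKM in each. Across genes, replicates correlated at a Spearman coefficient of 0.986 at 0.5 h and 0.983 at 1 h, and libraries of different times at 0.904 to 0.919. Relative depth, read from the steps between low values, was 0.933 to 0.973 of that of untreated 0.5 h replicate 1 in the MeJA libraries. The MeJA 1 h replicates had the smallest median absolute difference of the 4 groups, at 0.129 (log2) against 0.131 to 0.164, but the most genes far apart: replicate 1 exceeded replicate 2 by at least 1 (log2) in 155 genes, and replicate 2 exceeded replicate 1 in 46. At 0.5 h with MeJA these numbers were 96 and 48, and in the untreated groups replicate 1 was the higher in 22 to 23 genes and replicate 2 in 50 to 76.

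Within this interval 10571 genes changed (44.9% of those tested; limma, Benjamini-Hochberg adjusted p under 0.05). Of these, 3681 rose (15.6%) and 6890 fell (29.3%). On the log2 scale, the genes that rose had a median change of 0.73 and those that fell one of -0.63. In each called gene the 2 values at 1 h lay on the same side of the 2 values at 0.5 h. Among all tested genes the groups did not overlap in 75.8%. In bulk tissue, fewer cells of a type and less RNA per cell cannot be told apart, and this holds for each fall and rise given here.

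**Figure D1:**
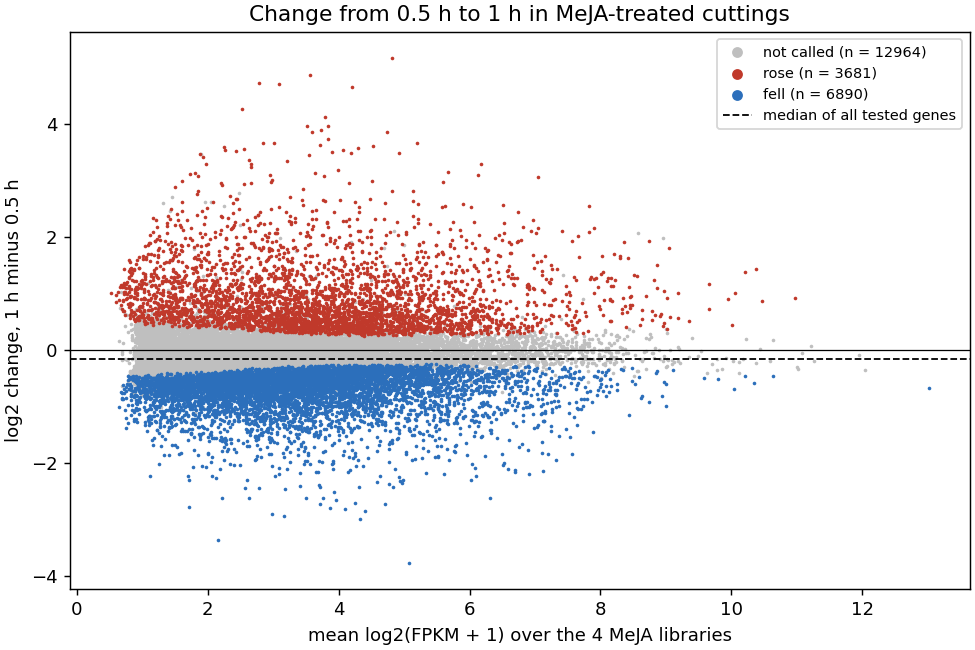
Each point is 1 of 23535 tested genes, with its mean log2(FPKM + 1) over the 4 MeJA libraries on the x axis and its log2 change from 0.5 h to 1 h on the y axis. The 3681 genes that rose reach further from 0 than the 6890 that fell, and the dashed line marks the median change of -0.15.

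The balance of rises and falls depended on the scale of the libraries. The median tested gene moved by -0.15 (log2). As deposited, rising genes made up 34.8% of the calls. After quantile normalization they made up 47.1%, and 52.8% when libraries were centred on their medians. The middle of the range moved more than its top: the median tested gene stood at 8.63 and 8.59 FPKM in the 0.5 h libraries and at 7.78 and 7.66 in those of 1 h, whereas the 99th percentile stood at 250 FPKM in each 0.5 h library and at 256 and 255 at 1 h. Which balance is right was not tested, since both scalings even out the libraries by construction.

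The largest changes were mostly upward. A rise of at least 1 on the log2 scale was called in 1193 genes (5.07%) and a fall of that size in 1166 (4.95%). At 2 or more the numbers were 225 (0.956%) and 78 (0.331%), and at 3 or more 49 (0.208%) and 3 (0.0127%). The scale itself compresses low values: with a pseudocount of 0.1 in place of 1, 478 genes rose and 220 fell by at least 2. Without MeJA 1 h replicate 1, 194 genes rose by at least 2, and without replicate 2, 280 did.

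The 49 genes that rose by at least 3 went from a median of 2.16 FPKM at 0.5 h to 43 FPKM at 1 h. At 0.5 h 14 of them had a mean under 1 FPKM. At 1 h 45 of them had a mean of at least 10 FPKM and 8 of at least 100, with 383 FPKM as the highest. They lay on 15 chromosomes, with 8 on chromosome 11, which held 960 of the 23535 tested genes. On that chromosome 4 consecutive tested identifiers, Potri.011G025900 to Potri.011G026200, rose by 2.68 to 4.14 (log2). Whether such neighbours share reads was not tested. A single transcript was listed for 36 of the 49 genes (73.5%), against 50.0% of all tested genes. The 78 genes that fell by at least 2 went from a median of 31.8 FPKM to 5.02 FPKM. A level of at least 100 FPKM was found in 14 of them at 0.5 h and in 0 at 1 h. They had a single transcript in 67.9% of cases. In the untreated libraries the 49 genes were all higher at 1 h with no overlap between the groups, as were 24.8% of all tested genes, and the 78 were all lower, as were 51.1%. These groups were chosen by the change itself, so their levels are a description.

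Potri.008G086700, on chromosome 8, showed the largest rise on the log2(FPKM + 1) scale. With a pseudocount of 0.1 its change of 5.49 came after the 5.62 of Potri.006G101100. Potri.008G086700 stood at 4.19 and 3.19 FPKM in MeJA 0.5 h replicates 1 and 2 and at 182 and 156 FPKM in MeJA 1 h replicates 1 and 2. Both 1 h libraries were thus far above both 0.5 h libraries, at 45.8 times the level by the means, and the log2 change was 5.18 ± 0.18 (SE; limma adjusted p = 5.23e-07). By mean level the gene moved from rank 17402 among the tested genes to rank 456. Its 5 listed transcripts all rose, from between 0.32 and 1.26 FPKM at 0.5 h to between 19.9 and 43.1 FPKM at 1 h. Of its neighbours by identifier, the tested gene before it stood at 0.481 and then 1.24 FPKM (limma adjusted p = 0.118) and the one after it at 8.16 and then 7.43 FPKM (limma adjusted p = 0.699). The second gene before it fell from 10.5 to 0.864 FPKM (log2 change -2.63; limma adjusted p = 2.02e-06).

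Potri.006G101100, on chromosome 6, has 1 listed transcript. It stood at 1.15 and 1.21 FPKM at 0.5 h and at 69 and 56.9 FPKM at 1 h with MeJA. The groups did not overlap, the means differed 53.4-fold, and the log2 change was 4.87 ± 0.20 (SE; limma adjusted p = 9.01e-07). The next identifier on the chromosome also rose, from a mean of 9.27 to 131 FPKM (log2 change 3.68; limma adjusted p = 8.64e-07). The gene before it stayed at 1.39 and 1.55 FPKM (limma adjusted p = 0.73). Whether reads are shared between these neighbours was not resolved.

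Potri.001G092900, on chromosome 1, showed the largest fall on the log2(FPKM + 1) scale. Potri.015G101500 fell further with a pseudocount of 0.1 (-4.78 against -3.93) and without MeJA 0.5 h replicate 1 (-3.88 against -3.78). The single transcript of Potri.001G092900 stood at 124 FPKM in each of the 0.5 h libraries and at 7.17 and 9.04 FPKM at 1 h, a level 15.3 times lower by the means. The log2 change was -3.79 ± 0.17 (SE; limma adjusted p = 1.47e-06). The genes before and after it had log2 changes of -0.10 (limma adjusted p = 0.625) and -0.27 (limma adjusted p = 0.146).

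Potri.015G101500, on chromosome 15 and with 1 transcript, stood at 9.04 and 19.5 FPKM at 0.5 h and at 0.317 and 0.474 FPKM at 1 h. Its 0.5 h replicates differed by more than those of the other genes named, but both were far above the 1 h libraries, and the means differed 36.1-fold. The log2 change was -3.37 ± 0.40 (SE; limma adjusted p = 0.000381), with a 95% confidence interval of -4.28 to -2.45. In cuttings without MeJA the 4 genes moved the same way, and the changes with and without MeJA differed by -0.42 to 0.56 (log2; limma adjusted p of the difference 0.638 to 0.933).

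**Figure D2:**
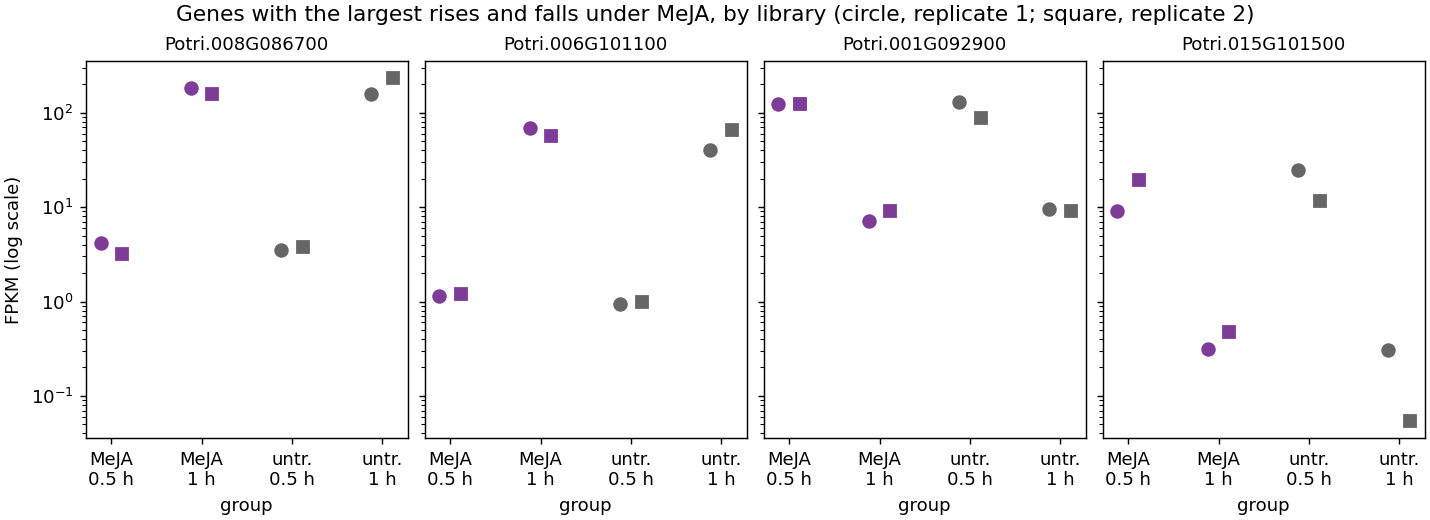
FPKM on a log axis of the 2 genes with the largest rises and the 2 with the largest falls under MeJA, in each of the 8 libraries (purple, MeJA; grey, untreated; circle, replicate 1; square, replicate 2). In every panel the 1 h libraries are clear of the 0.5 h libraries, as for Potri.008G086700 at 4.19 and 3.19 against 182 and 156 FPKM with MeJA.

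Few genes went from near absence to a substantial level. A group of 121 genes had less than 1 FPKM in both 0.5 h libraries and at least 2 FPKM in both 1 h libraries. Of these, 29 reached 5 FPKM at 1 h and 9 reached 10 FPKM. In the reverse direction, 92 genes were at 2 FPKM or more at 0.5 h and under 1 FPKM at 1 h, 6 from at least 5 FPKM and 0 from at least 10. The untreated libraries met the same limits for 73 of the 121 genes and 43 of the 92. How many of all tested genes met them there was not counted. The limits are fixed cuts that a gene can miss by little, so these counts do not show a difference between treatments. That difference was called by limma in 0 of 23535 genes.

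The weight of the listed transcripts shifted between the classes. The genes that rose held 14.6% and 14.5% of the summed FPKM in the 0.5 h libraries and 28.8% and 28.3% in those of 1 h. The genes that fell held 33.5% and 33.9% and then 20.2% and 20.5%. Tested genes without a call held 50.4% to 51.4% in each of the 4 libraries. Since the classes were chosen by the change, these shares show its extent and are no separate evidence for it.

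**Figure D3:**
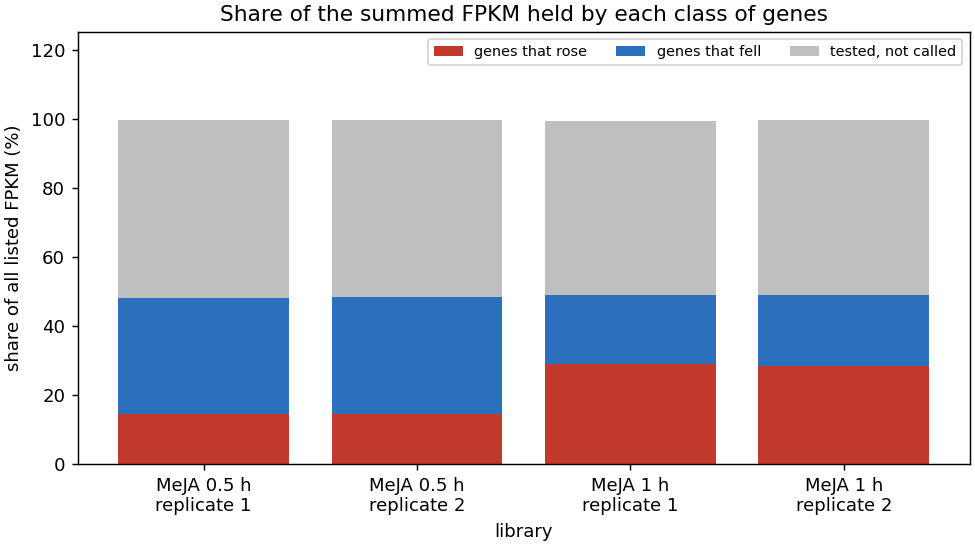
Stacked bars give the share of all listed FPKM (%) held by genes that rose, genes that fell and tested genes without a call in each MeJA library; untested genes make up the rest to 100%. The share of the rising genes is 14.6% and 14.5% at 0.5 h and 28.8% and 28.3% at 1 h.

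The most abundant genes were partly replaced. Replicates shared 91 of their 100 most abundant genes at 0.5 h and 87 at 1 h, and libraries of different times shared 64 to 71. By group means, 69 genes were among the 100 most abundant at both times. Of the 100 most abundant at 0.5 h, 16 rose and 22 fell. Of the 100 most abundant at 1 h, 45 rose and 8 fell. The share of genes called among all tested is 44.9%, and membership in either list is tied to the direction of change.

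Rises and falls were each called more often at 50 FPKM or more than under 2 FPKM, under each scaling. The mean level that sets the class was taken over the MeJA libraries of both times. A gene that rises strongly is thereby moved to a higher class, so part of the link between level and rising is built in. How large that part is was not tested. Of genes with a mean under 2 FPKM 10.7% rose and 18.8% fell. At 10 to 50 FPKM 18.9% rose and 32.6% fell, and at 50 FPKM or more 24.1% rose and 26.5% fell. After quantile normalization the share of rises still went from 13.1% under 2 FPKM to 24% at 50 FPKM or more, with falls at 14.2% and 26.3%. After median centring rises outnumbered falls in both of these classes, at 14.4% against 10.4% and 30.1% against 18.9%. Precision differs between them: the median standard error of the log2 change was 0.19 under 2 FPKM and 0.12 at 10 to 50 FPKM, so a change of the same size is more readily called in abundant genes.

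Genes with many listed transcripts fell more often and rose less often than genes with 1. A single transcript was listed for 11764 tested genes, of which 17.8% rose and 26.2% fell. Of 3739 genes with 4 or more transcripts, 12.1% rose and 35% fell. In the latter falls outnumbered rises under each scaling, with 15.4% rising and 25.8% falling after quantile normalization and 17.9% and 22.2% after median centring. In single-transcript genes the order turned, to 21.7% and 19.8% and to 23.1% and 17.4%. At 5 to 10 FPKM 19.9% of single-transcript genes rose against 6.22% of those with 4 or more, and 28.5% against 39.8% fell. At 50 FPKM or more 26.6% against 22.6% rose, and the order of the falls turned, at 28.3% against 26%. The differences between classes were not tested.

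**Figure D4:**
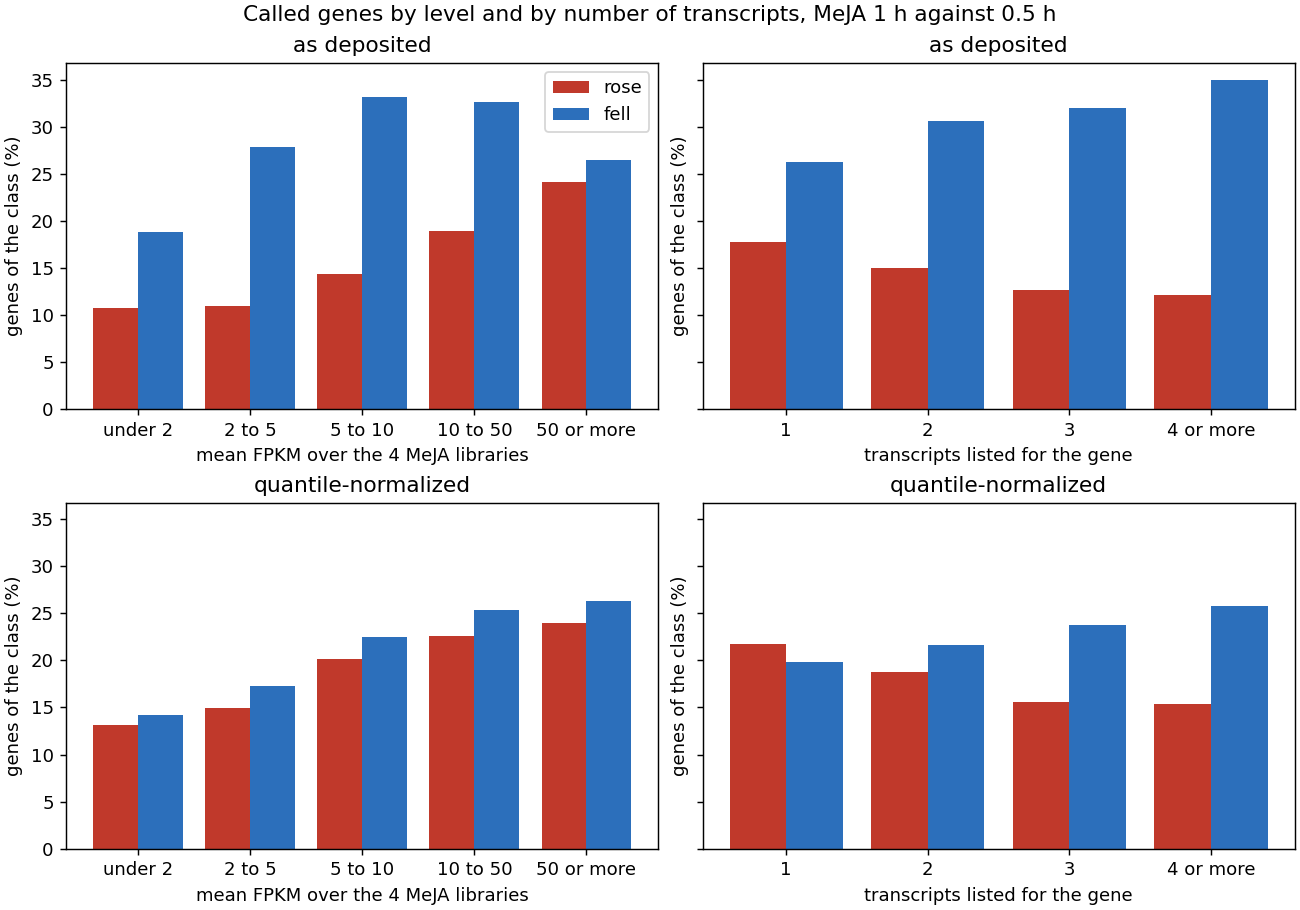
Bars give the percentage of tested genes in each class that rose (red) or fell (blue) between 0.5 h and 1 h with MeJA, by mean FPKM (left) and by number of listed transcripts (right), as deposited (top) and after quantile normalization (bottom). As deposited, falls go from 26.2% of genes with 1 transcript to 35% of those with 4 or more, while rises go from 17.8% to 12.1%.

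Within a gene the transcripts moved together. Among called genes with at least 2 transcripts of 1 FPKM or more, all of these transcripts moved in the direction of the gene in 1460 of 1475 risers (99%) and 3280 of 3331 fallers (98.5%). Only 1 riser and 2 fallers had a transcript that went the other way by at least 1 (log2). The level of a gene is the sum of its transcripts, which favours agreement by construction. How transcript levels were estimated is not given, and its part in this was not tested.

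Few changes were called in the share of a gene held by 1 transcript. The test covered 25693 transcripts with a mean share of 10% to 90%, from 7965 genes that held 5 FPKM or more in every MeJA library. Of these transcripts 9 changed in share (0.035%; limma on log2 odds, adjusted p under 0.05), and they belonged to 7 genes. An unadjusted p under 0.05 was found for 1910 (7.43%). For the difference between the changes with and without MeJA, limma called 0 transcript shares, with a smallest adjusted p of 0.953. The count was 5 without MeJA 0.5 h replicate 1 and 2 without either MeJA 1 h replicate. The genes described next were chosen after their values were seen. In Potri.001G418500, on chromosome 1 and with 13 listed transcripts, transcript 13 stood at 279 and 269 FPKM at 0.5 h and at 123 and 118 FPKM at 1 h. All 12 other transcripts rose in level, 1.81 to 9.56 times, with transcript 1 at the top from 40.1 to 384 FPKM. The gene as a whole rose from 1460 to 2770 FPKM (log2 change 0.93 ± 0.11 SE; limma adjusted p = 0.000167), while the share of transcript 13 went from 18.9% and 18.7% to 4.45% and 4.24% (limma adjusted p = 6.66e-05). Without MeJA that share went from 20.1% and 19.1% to 4.56% and 4.36%.

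In Potri.001G143400 transcript 12 of 12 went from 10.5 and 11.4 FPKM to 1.99 and 2.06 FPKM, and its share from 25.3% and 26% to 7.1% and 6.85% (limma adjusted p = 0.00147). Without MeJA its share went from 23.5% and 22.6% to 7.09% and 5.46%. Of the 11 other transcripts of that gene 2 rose in level, and the median ratio of 1 h to 0.5 h among the 11 was 0.802. The highest ratio, 2.89, was that of transcript 1, which stood at a mean of 1.33 and then 3.85 FPKM. The gene as a whole fell from 42.5 to 29 FPKM (log2 change -0.54 ± 0.12 SE, limma adjusted p = 0.00624). In Potri.005G056500 transcript 2 stood at 2.28 and 1.66 FPKM at 0.5 h and at 1.91 and 1.59 FPKM at 1 h, so that its level overlapped between the times. Its share went from 9.38% and 7.87% to 28.7% and 21.2% (limma adjusted p = 0.0422), while the gene as a whole fell from 22.7 to 7.08 FPKM (limma adjusted p = 2.1e-05). Without MeJA the share of transcript 2 went from 8.77% and 9.94% to 22.2% and 17%. In Potri.001G066600 transcript 2 went from 0.989 and 1.63 FPKM to 4.57 and 5.67 FPKM, and transcript 1 was at a mean of 8.43 and then 7.68 FPKM. The share of transcript 2 went from 10.4% and 16.3% to 38.5% and 41.3% with MeJA. Without MeJA it went from 13.5% and 14.2% to 41.8% and 41.7%.

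The next identifier moved the same way more often than tested genes as a whole, though in a minority of cases. After a gene that rose, the next tested identifier also rose in 24.5% of 3680 cases, where 15.6% of all tested genes rose. After a gene that fell the next one fell in 35% of 6885 cases, against 29.3%. For rises of at least 2 (log2) the next gene met the same limit in 13 of 225 cases (5.78%, against 0.956% of all), and for falls in 5 of 78 (6.41%, against 0.331%). The longest run of consecutive tested identifiers that each rose by at least 1 held 6 genes, on chromosome 2, with log2 changes of 1.39 to 2.44. The longest runs of falls held 5 genes, on chromosome 5 with log2 changes of -2.35 to -2 and on chromosome 6 with -1.77 to -1.03. There were 32 runs of 3 or more for rises and 16 for falls. Neighbouring copies of a gene can share reads, and their part in these runs was not tested.

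By chromosome, the share of tested genes that rose ran from 13.9% on chromosomes 7 and 17 to 19.3% on chromosome 11, and the share that fell from 25.1% on chromosome 12 to 31% on chromosomes 5 and 7. The list of 65535 transcripts ends within chromosome 17, so later identifiers are not in it and were not analysed here. Shares of the summed FPKM and ranks by level therefore refer to the listed genes only. Falls outnumbered rises on each of the 17 chromosomes as deposited. After quantile normalization rises outnumbered falls on chromosomes 11 (23.3% and 19.4%) and 12 (20.1% and 18%), and after median centring on all but chromosomes 8 (20% and 20.1%) and 13 (18.3% and 19.2%).

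The last comparison asked whether the change under MeJA differed from that in untreated cuttings. For the difference of the changes limma called 0 of 23535 genes at an adjusted p of 0.05, and 2206 (9.37%) had an unadjusted p under 0.05, with 1387 changes more positive with MeJA and 819 more negative. The smallest adjusted p was 0.213. The 95% confidence interval of this difference stayed between -1 and 1 (log2) in 86.2% of genes. In the other genes the interval reached past one of these bounds. The count was 6 without MeJA 1 h replicate 2, 2 without MeJA 1 h replicate 1, and 1 without MeJA 0.5 h replicate 1 or untreated 0.5 h replicate 1.

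The genes of smallest p are given as values. Potri.001G167600 stood at 7.81 and 7.35 FPKM at 0.5 h and 6.07 and 6.61 at 1 h with MeJA, and at 10.3 and 11.3 and then 3.55 and 3.07 FPKM without it (difference 1.23 ± 0.17 SE; limma adjusted p = 0.213). In Potri.015G087700 the MeJA libraries went from 36.6 and 46.5 to 22 and 24.7 FPKM and the untreated ones from 68.5 and 64.4 to 11.2 and 15 FPKM. Both genes were lower at 1 h in all libraries, with a smaller step under MeJA. They were picked by this difference, which was not called in either (limma adjusted p = 0.213). The fall of Potri.001G167600 with MeJA was not called (log2 change -0.225; limma adjusted p = 0.161). Potri.014G022200 went from 15 and 12 to 8.9 and 11.5 FPKM with MeJA and from 3.63 and 4.86 to 10.3 and 14.5 FPKM without it (difference -1.72 ± 0.27 SE; limma adjusted p = 0.213). Potri.009G010200 went from 81.6 and 90.9 to 109 and 107 FPKM with MeJA and from 62.1 and 55.3 to 153 and 137 FPKM without it.

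Genes picked for their change in 1 treatment could be read in the libraries of the other, with which they share none. Of the 186 genes with a log2 change of 2 to 3 under MeJA all 186 were higher at 1 h without MeJA too, with medians of 2.27 and 2.29. In the size classes of at least 0.5 chosen under MeJA, 95.6% to 100% of genes changed in the same direction without it. Over all tested genes 24.8% were higher at 1 h without MeJA with no overlap between the groups. The share by direction alone is not given here. The 78 genes that changed by -2 or less under MeJA had a median of -2.24 with it and -2.36 without it. Picked the other way round, 220 genes with a change of 2 to 3 in untreated cuttings had a median of 2.3 there and 2.04 with MeJA, a ratio of 0.888. The 148 genes at -2 or less in untreated cuttings had medians of -2.31 and -1.86, a ratio of 0.804. Values chosen as extremes tend to be larger in the libraries they were chosen in. Genes chosen under MeJA showed ratios of 0.965 to 1.08 across the size classes of at least 0.5, against 0.778 to 0.962 for those chosen without it. Tested genes were filtered on the MeJA libraries alone, so the 2 ways of picking are not alike. Whether the ratios differ was not tested. Over all tested genes the median change was -0.15 with MeJA and -0.19 without, and the median difference was 0.04. It was 0.03 for the genes that fell under MeJA and 0.03 for those that rose.

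**Figure D5:**
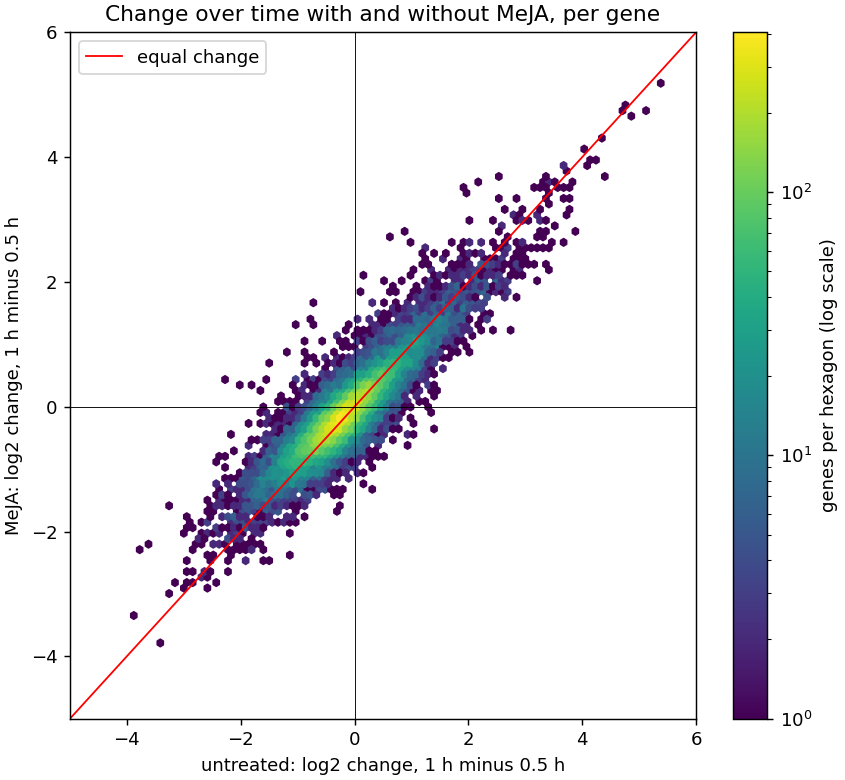
Each hexagon counts genes by their log2 change from 0.5 h to 1 h in untreated (x axis) and MeJA-treated cuttings (y axis), with colour on a log scale and the red line at equal change. The genes lie along the line, and over all tested genes the median difference, MeJA minus untreated, was 0.04.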

How the data were processed

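Group and replicate of each library follow the submitters' labels. The authors deposited 1 table per library with 65535 transcripts. The unit is not named per the file headers or labels and was taken to be FPKM, as the values are not whole, not negative and not on a log scale, with library sums of 562881 to 573404 in the MeJA libraries. The submitters' processing notes list HISAT2 2.1.0 and Bowtie2 2.2.3 with no role. The quantifier, build, annotation and strand setting are not given in these sources. Absolute depth is unknown and counting intervals could not be had. Relative depth was taken as the most frequent ratio between libraries of single-transcript genes under 1 FPKM.

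Transcripts were summed to genes by the identifier before its last dot. Genes with at least 1 FPKM in 2 of the 4 MeJA libraries were tested as log2(FPKM + 1) with limma 3.58.1 in R 4.3.3, using its trended prior and robust option. All 8 libraries entered with 4 group means, to share the estimate of spread, and contrasts gave the change with MeJA and its difference from the change without it. Calls were made at a Benjamini-Hochberg adjusted p-value of 0.05. Transcript shares were tested as log2 odds with a pseudocount of 0.5. The procedure was tried on simulated data in which few genes changed and the libraries had the same scale. That trial cannot show how the calls hold where many genes change or the scale shifts. A count test planned for read counts was not used.

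Members, lists and tests were chosen with earlier results of these data known. Without a table of descriptions the planned gene lists, marker check and promoter motifs were not run. The rule for named genes took the 2 largest rises and 2 largest falls among calls whose groups did not overlap and whose mean reached 1 FPKM, and for the difference between treatments the 2 genes of smallest p in each direction. Replicate numbers did not pair the libraries: same-numbered deviations correlated at -0.121 to 0.0386. Alternatives were other scalings, filters, pseudocounts, variance priors, a fold threshold, a replicate block and leaving out libraries.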

Additional observations from a re-analysis of the deposited data

How the results depend on the processing

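The count of 10571 genes stayed within 1.5 times under the alternatives run, except with a fold threshold of 1 (log2), which left 496, with 327 rising, 169 falling and 24 risers followed by a riser. That test asks for more than a change, so the lower count follows from its construction. Median centring gave 4442 falls and 1445 risers followed by a riser. A similar count does not mean the same genes. Of 9627 genes called after quantile normalization 8721 were among the 10571, and of 9404 called after median centring 8123 were. Without 1 MeJA library at a time 7314 to 7804 genes were called, 2635 to 2931 rising and 4679 to 4873 falling, with 545 to 643 risers followed by a riser. The remaining library is then assumed to vary like the other groups. The difference between treatments gave 0 to 6 calls when each of the 8 libraries was left out, and 0 under the other alternatives that could be fitted. It cannot be fitted from the 4 MeJA libraries alone. Transcript shares gave 3 calls with a pseudocount of 0.1, 5 among genes of at least 10 FPKM, and 2 to 6 without 1 MeJA library; the cause was not tested. The replicate block gave 10149 genes, 0 differences between treatments and 6 transcript shares. With the replicate numbers of the MeJA 1 h libraries crossed it gave 10599. The crossed block and the alternatives for transcript shares and neighbours were chosen after seeing the data. For the named genes, neither sign nor call moved in 55 of 55 tries for the change over time and 68 of 68 for the difference. As they were picked as extremes, this does not measure stability. Gene list alternatives were not run. Absolute depth is unknown, and precision was lowest under 2 FPKM, with a median standard error of 0.19.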

Other observations

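Among the rising genes, 60 were higher in MeJA 1 h replicate 1 than in replicate 2 by at least 1 (log2), and 3 were higher in replicate 2 by that much. The 60 genes, picked by this difference, had a median of 1.1 FPKM at 0.5 h, 13.2 in MeJA 1 h replicate 1, 3.94 in MeJA 1 h replicate 2 and 5.17 in untreated cuttings at 1 h. They include 24 of the 225 genes with a called rise of 2 or more and 9 of the 49 with a rise of 3 or more. Their median change from 0.5 h was 2.54 in replicate 1, 1.04 in replicate 2 and 1.35 in untreated cuttings. The order of the replicates is fixed by how the genes were picked, and the part of this library in their rise was not tested.

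Of the 7 genes with a changed transcript share, 6 lay on chromosome 1, which held 12.6% of the 25693 transcripts tested. Of the 9 changed transcripts 4 were numbered 10 or higher, and all 4 were on chromosome 1. Of the 75 tested transcripts with such a number, 18 were on that chromosome (24%). This was seen after the calls were made and was not tested.

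Of tested genes without a call, 95.3% of 12964 had a 95% confidence interval of the change that stayed between -1 and 1 (log2).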
